A study of Mus musculus with 1 sample.

Results

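Histone variant genes are mostly replication-independent members of the histone families, and they give mRNAs with poly(A) tails. The 8 genes followed here were H2afz, H2afv, H2afx, H2afy, H3f3a, H3f3b, H1f0 and H1fx. Their transcripts were the reads of at least 7 sequencing passes that the authors had assigned to these gene identifiers. This gave 1511 of 701976 nuclear transcripts, and 8 of the 12816 nuclear genes that had reads. The data came from PAIso-seq, a method that copies full-length mRNA together with its poly(A) tail and reads it as long molecules on the PacBio platform. The only group was wild-type mouse cells of the ICR strain at 24 h on the way from embryonic stem cells (ESCs) to epiblast-like cells (24h-EpiLCs), grown with activin A, bFGF and KSR on Matrigel. The group holds 1 sample, in which barcodes mark 2 replicates. The labels do not tie a barcode to a replicate number, so the numbers follow the barcodes, and whether the replicates are separate cultures is not stated. Every tail length is in nucleotides (nt) and includes non-A bases.

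Most core and linker histones are made only during DNA replication, from clustered genes whose mRNAs end in a conserved stem-loop and have no poly(A) tail. The replication-independent variants come from solitary genes, often with introns, and use the ordinary cleavage and polyadenylation route. They are deposited throughout the cell cycle and mark particular chromatin, such as active promoters and enhancers in pluripotent cells for H3.3 and H2A.Z. H3f3a and H3f3b both encode H3.3. H2afz and H2afv encode the near-identical proteins of H2A.Z. H2afx encodes H2AX, which is phosphorylated beside DNA breaks. Beside a polyadenylated mRNA, H2afx is known to have a short one that ends at a stem-loop. H2afy encodes macroH2A, a variant with a large additional domain that is linked to silent chromatin. H1f0 and H1fx encode replication-independent linker histones.

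Replicate 1 held 246316 nuclear transcripts and replicate 2 held 455660, so replicate 2 was the deeper library. The median nuclear tail was 91 nt in each. Tails of 1 to 5 nt made 1.52% of all nuclear tails in the first and 2.75% in the deeper library. The label of the cells was compared with marker genes. All 6 formative markers had reads, 1096 in total, as had all 3 shared pluripotency markers, with 552. The 5 naive markers had 549 reads, of which 501 came from Zfp42. Endoderm, mesoderm, trophoblast and fibroblast markers had 4 reads together, over 11 genes.

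The number of transcripts was examined first. H3f3b gave most of them, 884 of 1511 or 58.5%. H3f3a followed with 257 and H2afz with 217, as the authors assigned the reads. A near-identical pseudogene of H2afz, Gm8203, held 405 further reads, and with the reads of such copies H2afz had 622 and H3f3a 301, which turns their order. H2afv had 68, H2afx 41, H2afy 25 and H1f0 16, and H1fx had 3. Each read spans a transcript to its tail, so numbers were not divided by transcript length. The cDNA was amplified before sequencing. In bulk RNA, fewer cells with a transcript and less of it in each cell cannot be told apart.

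Levels are given as reads per 1000000 nuclear transcripts (RPM). H3f3b reached 1807 RPM in replicate 1 (95% Wilson interval 1647 to 1982) and 963 RPM in replicate 2 (877 to 1058). As the reads were assigned, H3f3b was therefore the most abundant variant in both libraries, and its intervals did not overlap between them. H3f3a, which encodes the same protein, had 341 RPM in replicate 1 and 380 in replicate 2. H2afz had 317 and 305. With the reads of near-identical copies, H2afz had 930 and 862 RPM and H3f3a 418 and 435 RPM. No intervals were computed for these sums, so the first rank of H3f3b over H2afz in replicate 2, 963 beside 862 RPM, is less sure. H2afv had 142 RPM in replicate 1 and 72.4 in replicate 2, a lower level in the deeper library like that of H3f3b. H2afx had 73.1 and 50.5, H2afy 24.4 and 41.7, and H1f0 36.5 and 15.4. Molecules without a tail base were left out, so the H2afx level covers only its mRNA with a tail. H1fx had 8.12 and 2.19, below the level that 3 reads give, which is 12.2 and 6.58 RPM. In the order of the levels as assigned, the neighbours H2afv and H2afx overlapped between replicates, and so did H2afy and H1f0. The intervals cover counting error within a library only, and not the variation between libraries. The reads have no molecular identifiers, so amplified copies of the same cDNA could count as separate reads. The intervals may therefore be too narrow.

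Of the 1775 nuclear genes that reached 30 transcripts in both replicates, 28% differed over 1.5-fold in level between the replicates. Of the 4 variants at that depth, 2 did, H2afv with a ratio of 1.96 and H3f3b with 1.88. H3f3a had a ratio of 1.11 and H2afz 1.04. The ratio of H2afv was above that of 91.8% of these genes, and that of H3f3b above 90.1%.

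Tail length was then compared between the variants, to see how far genes of related function differ. The tail of a gene is the geometric mean over its transcripts. Long tails were found on H1f0, H2afv, H2afx and H3f3a, intermediate tails on H2afz and H3f3b, and short tails on H2afy. H1fx (chromosome 6, 87980421 to 87981637, minus strand), with 3 tails of 99, 103 and 185 nt, was below the minimum of 10 transcripts and was not counted.

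The linker histone gene H1f0 (chromosome 15, 79028450 to 79030504, plus strand, GRCm38) had a tail of 100.1 nt in replicate 1 and of 109 nt in replicate 2 (104.8 ± 6.66, SD, n = 2). These rested on 9 tails of 71, 77, 81, 91, 100, 101, 112, 138 and 160 nt and on 7 tails of 37, 85, 93, 128, 158, 161 and 198 nt. No H1f0 tail was thus under 37 nt, and the wider spread was in replicate 2. H2afv had 98.2 nt and 109 nt (103.7 ± 7.70), from 35 and 33 transcripts. H2afx had 90.3 nt and 105 nt (97.6 ± 10.3), from 18 and 23 transcripts. H3f3a had 110.1 nt and 85.3 nt (97.7 ± 17.5), from 84 and 173 transcripts. The SD of H3f3a was the largest of the 7 variants, and the replicate ranges of the 4 genes overlapped each other.

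H2afz had a tail of 83.3 nt in replicate 1 and of 78.4 nt in replicate 2 (80.8 ± 3.47), from 78 and 139 transcripts. H3f3b had 76.5 nt and 78.8 nt (77.6 ± 1.57), from 445 and 439 transcripts. This was the smallest spread of the 7, at the greatest depth, and the replicate ranges of H2afz and H3f3b overlapped. H2afy had 55.4 nt and 59.3 nt (57.3 ± 2.78), from 6 and 19 transcripts. Its single tails ran from 12 to 212 nt. In replicate 1, the 6 tails of H2afy were 12, 32, 70, 76, 81 and 174 nt.

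Among the 21 pairs of the 7 variants, 14 had replicate ranges that did not overlap. Among all pairs of genes with at least 10 transcripts and reads in both replicates, 52.2% did not overlap, so ranges that miss each other are frequent with 2 values a gene. The overlaps were all within the long group or within the pair H2afz and H3f3b. The medians over transcripts gave the same order of these groups. The lowest median of the long group was 95.5 nt (H2afx, replicate 1), the medians of H2afz and H3f3b lay between 82 and 94 nt, and the highest of H2afy was 73 nt. The grouping was read from these values. No test was run, because the smallest p that a two-sided exact permutation test of 2 values against 2 can give is 0.333.

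**Figure D1:**
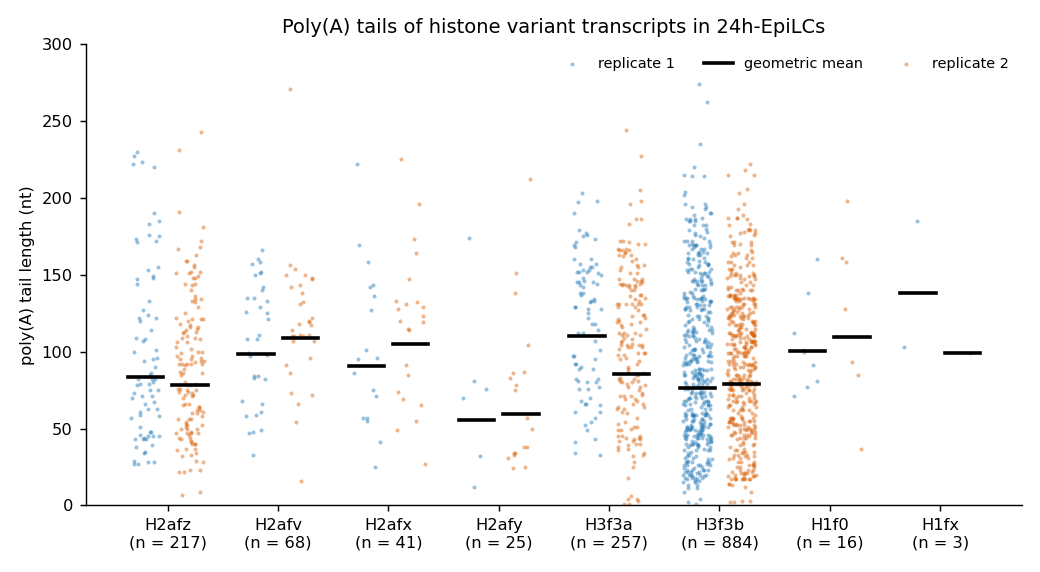
Each point is the poly(A) tail length in nt of 1 transcript of a histone variant gene, in blue for replicate 1 and in orange for replicate 2, and each black bar is the geometric mean of a gene in a replicate. The bars of H1f0, H2afv, H2afx and H3f3a lie between 85.3 and 110.1 nt, those of H2afz and H3f3b between 76.5 and 83.3 nt and those of H2afy at 55.4 and 59.3 nt.

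The study used 75 nt as the boundary between short and long tails. Of all 7146 nuclear genes with at least 10 transcripts, 52.6% had a tail over it. Of the 7 variants at that depth, 6 did, and H2afy did not. H3f3b at 77.6 nt and H2afz at 80.1 nt lay closest above it in the pooled data. The median of the 7 gene tails was 92.7 nt, beside 76.4 nt for all tested genes, whose quartiles were 62.4 and 88.6 nt. Among the tested genes, 92.8% had shorter tails than H1f0 and 92.2% shorter tails than H2afv. The same share was 88.0% for H2afx, 81.4% for H3f3a, 58.4% for H2afz, 52.9% for H3f3b and 19.6% for H2afy.

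A tail near the median length of a gene is shown for H2afy, the variant with the shortest tail, and for H3f3a, as read in replicate 1. The capital marks a last base that is not A, which the H3f3a tail lacks. The H2afy tail shown is the only 1 of 25 with a last T, which 6 of 257 H3f3a tails had.
H2afy: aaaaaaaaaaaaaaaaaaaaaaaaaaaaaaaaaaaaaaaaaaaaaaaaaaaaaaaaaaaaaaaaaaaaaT
H3f3a: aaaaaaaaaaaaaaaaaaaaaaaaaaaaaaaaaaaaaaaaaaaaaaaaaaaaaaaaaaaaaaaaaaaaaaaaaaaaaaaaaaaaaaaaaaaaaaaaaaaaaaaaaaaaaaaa
The H2afy tail has 70 nt and the H3f3a tail 112 nt.

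Genes for the same or nearly the same protein were compared next. H3f3a (chromosome 1, 180800832 to 180813943, minus strand, GRCm38) and H3f3b (chromosome 11, 116021912 to 116027962, minus strand) differ at 95 of 408 coding bases, or 76.7% identity. H3f3a had the longer tails in both replicates, by 33.5 nt in replicate 1 and by 6.57 nt in replicate 2. The mean difference of 20.1 nt was close to its spread (SD 19.1, n = 2). The median differences were 41.5 and 11 nt. Tails over 150 nt were 28.6% of H3f3a transcripts and 17.8% of H3f3b transcripts in replicate 1, and 18.5% and 11.8% in replicate 2.

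H2afz (chromosome 3, 137864487 to 137866922, plus strand) and H2afv (chromosome 11, 6427229 to 6444443, minus strand) differ at 80 of 384 coding bases, or 79.2% identity. H2afv had the longer tails by 14.96 nt in replicate 1 and by 30.8 nt in replicate 2, with a mean difference of 22.9 nt (SD 11.2, n = 2). The medians differed by 26 and 28 nt. Tails over 90 nt were 62.9% of H2afv transcripts (46.3% to 76.8%) and 43.6% of H2afz transcripts (33.1% to 54.6%) in replicate 1. In replicate 2 they were 81.8% (65.6% to 91.4%) and 49.6% (41.5% to 57.8%). The direction was the same in both libraries, and the intervals were apart in replicate 2 and overlapped in replicate 1.

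The DNA damage variant H2afx (chromosome 9, 44334694 to 44336077, plus strand) had longer tails than H2afz by 7.06 and 26.5 nt, with a mean of 16.8 nt (SD 13.8, n = 2). It exceeded the macroH2A gene H2afy (chromosome 13, 56073619 to 56136361, minus strand) by 34.98 and 45.6 nt, with a mean of 40.3 nt (SD 7.51, n = 2). That difference was larger than the spread between replicates, although H2afy rested on 6 transcripts in replicate 1. Of H2afy tails, 20.0% were over 90 nt (8.86% to 39.1%), and of H2afx tails 63.4% (48.1% to 76.4%), with both replicates pooled.

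The agreement between replicates was read for the 4 variants with at least 30 transcripts in each. Across all genes of that depth, 14.7% differed over 1.25-fold in tail length. Of the 4 variants, 1 did. H3f3a had a ratio of 1.29, above that of 88.6% of the genes, while H2afv had 1.11, H2afz 1.06 and H3f3b 1.03. H3f3a had 5 tails of 1 to 5 nt, all A and all in replicate 2. Without tails under 6 nt, H3f3a had 110.1 nt in replicate 1 and still 95.2 nt in replicate 2, a ratio of 1.16, so these few reads decided on which side of 1.25-fold it lay. Very short tails were also more frequent in replicate 2 over all nuclear transcripts, as given above.

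**Figure D2:**
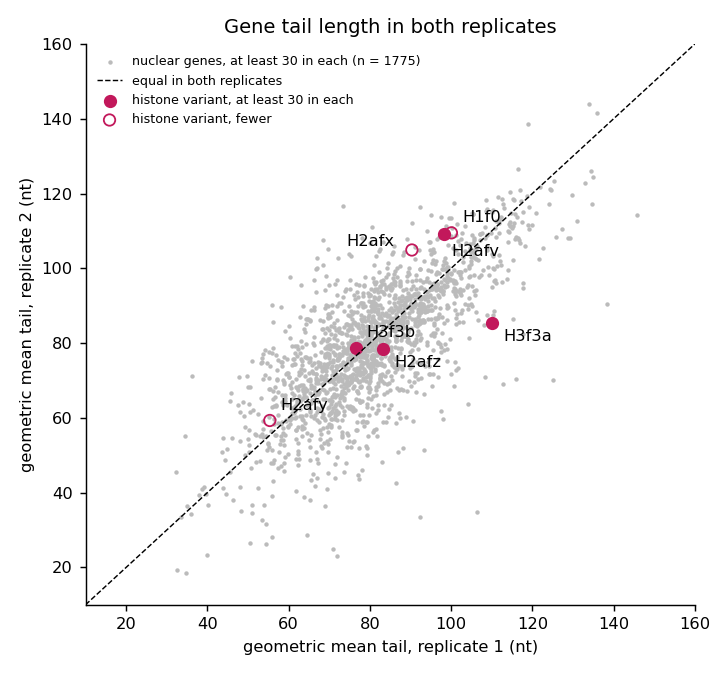
Geometric mean tail of each gene in nt in replicate 1 (horizontal) and replicate 2 (vertical), in grey for the 1775 nuclear genes that reached 30 transcripts in both, with the histone variants in magenta, open where either replicate had fewer. H3f3b, H2afz and H2afy lie near the dashed line of equal values, and H3f3a lies below it at 110.1 and 85.3 nt.

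Whole distributions showed what the geometric means combine. Over all 1511 variant transcripts, the medians of the replicates were 93 and 97 nt, and 51.4% and 55.0% of tails were over 90 nt. The share over 90 nt of all nuclear transcripts was 50.6% in each. H3f3b weighs most in these figures, and the 7 other variants together had 57.3% over 90 nt in replicate 1 and 57.2% in replicate 2.

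The variants differed at the short end of the distribution. Tails of 1 to 30 nt were 10.97% of H3f3b transcripts (9.08% to 13.2%), close to the 10.6% of all nuclear transcripts. They were 3.50% of H3f3a transcripts (1.85% to 6.52%) and 5.99% of H2afz transcripts (3.53% to 9.98%). H2afy had 3 of 25 (12.0%, 4.17% to 29.96%), H2afx 2 of 41 (4.88%, 1.35% to 16.1%) and H2afv 1 of 68 (1.47%, 0.260% to 7.87%). H1f0 had none of 16, which allows up to 19.4% by the Wilson interval. A set of H3f3b tails lay at 11 to 20 nt, a range chosen after the values were seen. This range held 21 of 445 H3f3b transcripts in replicate 1 (4.72%, 3.11% to 7.11%) and 20 of 439 in replicate 2 (4.56%, 2.97% to 6.93%). The other 7 variants had 3 of 627 there (0.478%, 0.163% to 1.40%), and all nuclear transcripts 2.89%.

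At the long end, tails over 150 nt were 25% of H1f0 transcripts (4 of 16), 21.8% of H3f3a, 17.1% of H2afx (7 of 41), 14.8% of H3f3b, 14.3% of H2afz, 13.2% of H2afv (9 of 68) and 12.0% of H2afy (3 of 25), with 15.6% for all nuclear transcripts. H2afv had 58.8% of its tails between 91 and 150 nt in the pooled data, with 45.7% in replicate 1 and 72.7% in replicate 2. The longest variant tail, of 274 nt, was on H3f3b in replicate 1.

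**Figure D3:**
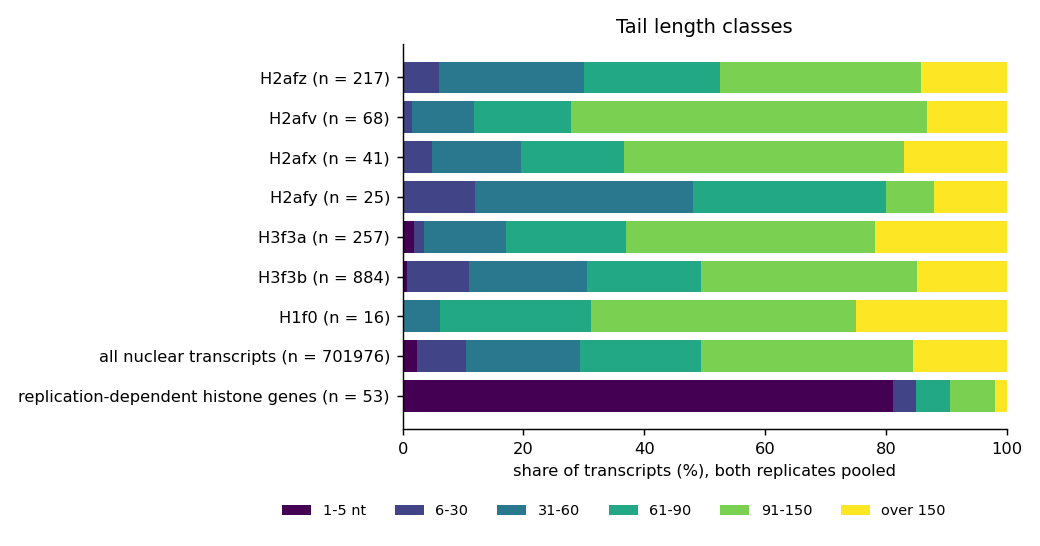
Share of transcripts in percent by tail length class, both replicates pooled, for the 7 histone variants with at least 10 transcripts, for all nuclear transcripts and for replication-dependent histone genes. H2afv has 58.8% of its tails at 91 to 150 nt, H2afy has 20.0% over 90 nt, and the replication-dependent genes have 81.1% at 1 to 5 nt.

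Bases other than A were examined at the end of the tail and inside it. A last base T can stand for a terminal U in the RNA. Uridylation adds U mainly to short tails and is known to precede decay. Whether the T bases read here came from it was not tested. A last T ended 35 of 1511 variant tails, 2.51% in replicate 1 (1.57% to 3.98%) and 2.16% in replicate 2 (1.37% to 3.39%). All nuclear transcripts had 3.93% and 2.58%. H3f3b held 21 of these tails, H3f3a 6, H2afz 4, H2afv 3 and H2afy 1. H2afx, H1f0 and H1fx had none, where H2afx with 41 transcripts allows a share of up to 8.57% by the Wilson interval. The tails with a last T had a median of 38 nt on H3f3b, 53 nt on H3f3a, 69 nt on H2afz and 117 nt on H2afv.

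Among variant tails of at most 20 nt, 8 of 61 ended in T (13.1%, 6.80% to 23.8%), beside 14.0% for nuclear tails of that length. All 8 were on H3f3b, which also had 50 of the 61 short tails. Of variant tails of 6 to 20 nt, 8 of 49 ended in T (16.3%, 8.51% to 29.0%), and of nuclear ones 22.6%, so no difference was detectable at this depth. The shortest, the longest and 1 other of these 8 H3f3b tails are shown, with the T bases in capitals.
H3f3b, replicate 2: aaaaaaaaaaaT
H3f3b, replicate 1: aaaaaaaaaaaaaaaaTT
H3f3b, replicate 1: aaaaaaaaaaaaaaaaaaTT
Bases other than A away from the first and last position occurred in 6.94% of variant tails in replicate 1 and 5.40% in replicate 2, beside 8.22% and 6.89% of all nuclear tails. An H3f3b tail of 28 nt held 2 of them, marked in capitals.
H3f3b, replicate 1: aaaCaaaaCaaaaaaaaaaaaaaaaaaa

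The replication-dependent histone genes, whose mRNAs normally have no poly(A) tail, were counted beside the variants. The clusters Hist1 to Hist4 hold 70 annotated genes, and 29 of them had reads. Of these 29, 28 are protein-coding, and Hist1h2al, with 2 reads, is annotated as a processed pseudogene. They had 53 reads in all, 15 in replicate 1 and 38 in replicate 2, or 60.9 and 83.4 RPM. For each such read there were 28.5 variant reads. Hist1, on chromosome 13, gave 47 reads from 27 of 56 genes, and Hist2, on chromosome 3, gave 6 from 2 of 10. None came from the 3 genes of Hist3 or from the gene of Hist4, which allows up to 4.27 RPM, the level of 3 reads in the pooled total. By class, 18 reads were of H2A genes, 12 of H2B, 11 of H1, 10 of H4 and 2 of H3. The authors left out transcripts with no tail base, so these counts cover only molecules with at least 1 tail base. Genes of these clusters are near-identical to each other, which leaves the count of any single gene uncertain.

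These tails were far shorter than those of the variants. Their median was 2 nt in each replicate, and tails of 1 to 5 nt were 73.3% in replicate 1 (48.0% to 89.1%) and 84.2% in replicate 2 (69.6% to 92.6%). Variant tails of that length were 0.443% and 1.08%, and the intervals of these groups, 0.151% to 1.30% and 0.569% to 2.04% for the variants, were far apart. The 53 tails fell into 2 sets with an empty range between them. In the short set, 45 reads had 1 to 7 nt, of which 17 had 1 nt and 13 had 2 nt, and 41 of the 45 were A alone. Where needed, the authors extended tails upstream into continuous A bases of the alignment. Tails this short may therefore include encoded bases, which was not tested. In the long set, 8 reads had 64 to 153 nt, from 7 genes, 3 of them in replicate 1 and 5 in replicate 2.

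The 5 replication-dependent genes with the most reads were taken with those tied with them. Hist2h2ab had 5 reads with tails of 1 to 6 nt. Hist1h2be had 4, all of 1 nt and all in replicate 2. Hist1h4j had 4, from 1 to 98 nt. Hist1h1a, Hist1h1c, Hist1h1e and Hist1h2ae had 3 each, and the longest tail of the whole group, 153 nt, was on the linker histone gene Hist1h1c. None reached the 10 transcripts needed for a gene tail. The 8 long tails were singled out after their values were seen. They were on Hist1h2bh (64 nt), Hist1h1c (72 and 153 nt), Hist1h2bk (85 nt), Hist1h2ag (94 nt), Hist1h4j (98 nt), Hist1h2bg (123 nt) and Hist1h2ai (143 nt).

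**Figure D4:**
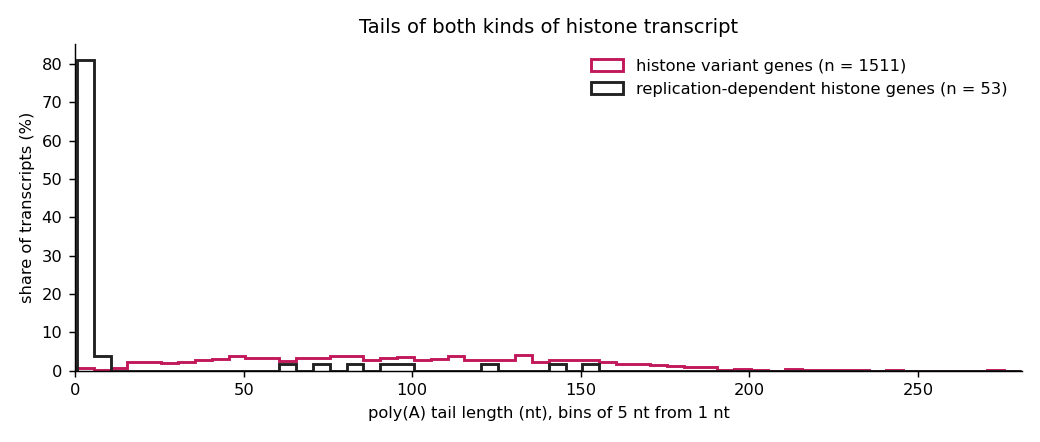
Share of transcripts in percent by poly(A) tail length in nt, in bins of 5 nt that start at 1 nt, for 1511 transcripts of histone variant genes (magenta) and 53 of replication-dependent histone genes (black), both replicates pooled. The first bin holds 81.1% of the replication-dependent reads and 0.794% of the variant reads. No replication-dependent read lies between 7 and 64 nt, so the black line is at 0 in the bins wholly within that range.

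The annotated transcripts were searched for the stem-loop that ends replication-dependent mRNAs. The letters searched were a stem of 6 paired bases that starts with GG and a loop of 4 bases that starts with TT, on the strand of the transcript, in GENCODE vM21 transcripts of GRCm38. The search of whole transcripts was chosen after a search of the last 150 bases had been seen. Such a hairpin was found in 44 of 67 protein-coding replication-dependent genes (65.7%), in 0.594% of all 21877 protein-coding genes and in 1 of the 8 variants, H2afx. In the last 150 bases it was found in 22 of the 67 genes (32.8%), in 0.137% of all genes and in none of the variants. All genes include the 67, which gave 44 of its 130 genes with a hairpin and 22 of its 30 in the last 150 bases. Of 9 protein-coding genes among the other histone variants looked up, 1 also had a hairpin, and 0 had it in the last 150 bases. H2afx is known as a gene with both kinds of mRNA, a short one that ends at the stem-loop and a longer polyadenylated one. Its hairpin is shown beside those of 3 replication-dependent genes with reads, with the stem and loop in capitals.
H2afx: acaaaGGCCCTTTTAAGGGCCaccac
Hist1h2be: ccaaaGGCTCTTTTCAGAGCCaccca
Hist1h4j: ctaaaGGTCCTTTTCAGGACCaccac
Hist1h1c: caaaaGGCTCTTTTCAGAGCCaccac
They lie at chr9:44335235-44335260 (plus strand), chr13:23585526-23585551 (minus strand), chr13:21735432-21735457 (plus strand) and chr13:23739507-23739532 (plus strand), in the same order. The H2afx hairpin starts 50 bases after the last coding base and lies 838 bases before the end of the single-exon transcript of 1384 bases. All 41 H2afx reads had tails of 25 to 225 nt, and none fell in the range of 1 to 7 nt that held 45 of the 53 replication-dependent reads. The deposited values do not give the position at which a read ended, so which H2afx end was used was not measured.

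The polyadenylation signal AATAAA was looked up in the last 50 bases of the longest annotated transcript, on its own strand. It was found in 4 of the 8 variants, H2afv, H3f3a, H1f0 and H1fx, and the related letters ATTAAA in H2afz and H2afx. Over all protein-coding genes, 59.2% had AATAAA and 16.5% ATTAAA, and of the replication-dependent genes 14 of 67 (20.9%) had AATAAA. H2afy and H3f3b had neither in that window, while H3f3b and H2afz had AATAAA at the end of another annotated transcript. The signals of the long-tailed variants H2afv, H2afx and H1f0 are shown, with the 6 letters in capitals.
H2afv: acagaAATAAAgaaac
H2afx: attttATTAAAggatc
H1f0: tttaaAATAAAactgg
They lie at chr11:6427247-6427262 (minus strand), chr9:44336038-44336053 (plus strand) and chr15:79030478-79030493 (plus strand). A match is a description of letters and not evidence of use.

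H2afz and H3f3a have processed pseudogenes that are nearly the same in sequence, so their reads can be divided between loci. Of the pseudogenes that matched a variant over at least 200 bases at 95% identity or more, there were 21, and 6 had reads. H2afz has 2 such copies, H3f3a 16, H3f3b 2 and H2afx 1. Gm8203 (chromosome 6, 116173737 to 116174123, plus strand), a copy of H2afz, had 405 reads, more than the 217 of H2afz. The genome at that locus matched bases 103 to 968 of the H2afz transcript of 1069 bases, over 866 bases with 1 mismatch. This match stops before the end of that transcript. A shorter H2afz transcript of 810 bases matched from base 315 to its end, over 496 bases with 0 mismatches. The match thus reached only 1 of these 2 annotated 3′ ends. Which end the reads of either locus had was not tested. Gm8203 reads had tails of 88.0 and 85.9 nt in the replicates. With them, H2afz had 622 reads and tails of 86.4 and 83.1 nt, which still lay below those of H2afv, H2afx and H1f0 in the same replicate. The replicate range of H2afz then no longer overlapped that of H3f3b, 76.5 to 78.8 nt, and it overlapped that of H3f3a as assigned, at 85.3 nt in replicate 2. The 4 copies of H3f3a with reads had 44 reads with a tail of 99.8 nt, and with them H3f3a had 107 and 87.6 nt, which did not overlap H2afz with Gm8203. Annotated genes that overlap the variants had 0 reads.

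Other genes of the same biology were read from lists. Of 11 other histone variant genes, 3 had reads. The list includes H3f3c, which is annotated as a processed pseudogene, is also among the copies of H3f3a and had 0 reads. H2afj, an H2A variant, had 43 reads and tails of 89.9 and 118 nt. Cenpa, the centromeric H3 variant, had 44 reads and tails of 61.9 and 90.6 nt. H2afy2, the second macroH2A gene, had 6 reads. Both tested genes, H2afj and Cenpa, were over 75 nt in the pooled data.

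Of 25 histone chaperones and exchange factors, 22 had at least 10 transcripts, 8 with a tail over 75 nt and 14 not over it, and their median gene tail was 73.2 nt. Nasp, a chaperone of H1 and of H3 and H4, had the most transcripts, 1666, with tails of 72.1 and 70.5 nt. Nap1l1, an H2A and H2B chaperone, followed with 1357, and at 94.1 and 92.7 nt it had the longest tail, pooled and in each replicate, among those with at least 30 in each. The FACT subunit Ssrp1 had 654 transcripts and tails of 78.6 and 86.2 nt. Dek, a chromatin protein with H3.3 chaperone activity, had the shortest pooled tail at that depth, 56.8 nt, with 65.1 and 54.0 nt in the replicates. In replicate 1, Chaf1b at 55.9 nt and Asf1a at 56.9 nt were shorter. Hira, the core subunit of the H3.3 chaperone, had 0 reads, which allows up to 4.27 RPM.

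Of 11 genes for 3′ end formation of replication-dependent histone mRNAs, 10 were tested. Tails over 75 nt were found on 5 of these and not on the other 5, with a median of 76.4 nt. Slbp, the stem-loop binding protein, had 194 transcripts and tails of 65.2 and 86.3 nt. Cpsf3, the endonuclease, had 147 and tails of 80.0 and 79.6 nt. Eri1, an exonuclease of histone mRNA ends, had 108 transcripts and, at 61.8 and 56.7 nt, the shortest tail among those with 30 or more in each replicate. Cpsf2, a subunit of the cleavage complex, had the longest in the pooled data, 80.5 nt, with 92.6 and 74.6 nt in the replicates. In replicate 2 it was shorter than Slbp and Cpsf3. The medians of the chaperones and of the 3′ end genes lay near that of all tested genes, 76.4 nt. The 92.7 nt of the 7 variants lay above it, but their gene tails ran from 58.3 nt on H2afy to 104.1 nt on H1f0. H3f3b at 77.6 nt and H2afz at 80.1 nt lay near it. The 2 other tested variant genes were unlike each other, with pooled tails of 101.8 nt for H2afj and 79.6 nt for Cenpa.

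H3f3b was the only variant deep enough to search for genes of like tail distribution, with at least 100 transcripts in each replicate. Of 374 protein-coding genes of that depth, Mcm2, a subunit of the replicative helicase, was closest, with a largest gap of 0.0188 between cumulative shares. Kpnb1, an import receptor, was next with 0.0218. Their pooled tails were 77.8 and 76.8 nt, beside 77.6 nt for H3f3b.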

How the data were processed

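PAIso-seq was performed by the authors on RNA of wild-type 24h-EpiLCs. Consensus reads were made with ccs, mapped to mm10 with minimap2 (version 2.17) and assigned to genes with featureCounts (version 2.0.1), and reads without a tail were discarded. The deposited table gives per read the barcode, gene, number of passes and counts of tail bases, without normalization. The methods state no strand setting for the gene assignment.

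From these counts, tail length was taken as A plus non-A bases in reads of at least 7 passes. Gene symbols came from GENCODE vM21 (GRCm38). Mitochondrial genes were left out. Gene tails are geometric means over at least 10 transcripts. Intervals of shares are 95% Wilson intervals. Copies were found with blastn 2.17.0. Python 3.11.15, pandas 2.3.3 and scipy 1.17.1 were used. The scripts were tested on simulated tails.

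With 1 group and 2 replicates, values are descriptions and no test was run. Genes, lists and boundaries were chosen with earlier results of these data known. Named were the 8 variants, the 5 replication-dependent genes with the most reads, the looked-up variant genes with reads, and from the other 2 lists the 3 genes with the most transcripts and the longest and shortest tail with at least 30 in each replicate. The pseudogenes and Hira were named after their values were seen. Alternatives changed the pass filter, the shortest tail, the summary per gene, the replicates and the wells used. Protein sequences and Cnot8 knockout cells were not analysed here.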

Additional observations from a re-analysis of the deposited data

Results flagged for a closer look

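Reads outside the main measurement were found for the histone variants in 3 places, above the 4.27 reads per 1000000 nuclear transcripts (RPM) that 3 reads of the pooled total give. The pseudogene Gm8203 had 405 reads, 613 RPM in replicate 1 and 557 RPM in replicate 2, at a locus that matches H2afz transcripts. The copies of H3f3a had 44 reads, 77.1 and 54.9 RPM. How the mapping divided reads between a gene and its copies was not tested.

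Variant reads of under 7 passes numbered 89, 44 in replicate 1 and 45 in replicate 2, or 5.56% of variant reads, beside 6.84% of nuclear reads. Their geometric mean tail was 86.1 nt, and that of the variant reads used was 81.9 nt.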

How the results depend on the processing

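Of 225 values recomputed under alternatives, 200 stayed within the spread between replicates or, for counts, within 1.5 times the reported count. The other 25 did not. This limit is easiest to meet where the replicates differ most. Counts apart, values with either replicate left out were judged by the spread of those same 2 replicates, which partly fixes their outcome. The difference H3f3a minus H3f3b, 15.1 nt with a spread of 19.1 nt, stayed within it under every alternative. The alternative of at least 4 A among the first 8 bases left out 0 variant reads, so it returned the variant values unchanged, and these count among the 200. The median gene tail of the variants, 92.7 nt, became 109 nt if genes were summarised by arithmetic means and 100.5 nt by medians, and 82.0 to 90.3 nt with either replicate left out, where fewer genes reached 10 transcripts. Replication-dependent histone reads fell from 53 to 10 with tails of at least 6 nt and to 8 with at least 15 nt, which removes short tails by construction, and their median tail of 2 nt became 89.5 and 96 nt. With either replicate left out they numbered 15 to 38, and their share of 1 to 5 nt tails, 81.1%, was 73.3% to 84.2%. The differences between related variants kept their sign under every alternative run, at 6.57 to 33.5 nt for H3f3a minus H3f3b, 14.96 to 30.8 nt for H2afv minus H2afz, 7.06 to 29 nt for H2afx minus H2afz and 34.98 to 45.6 nt for H2afx minus H2afy. Adding reads of near-identical copies, chosen after seeing the data, moved H2afz from 80.1 to 84.3 nt. The count of variants over 75 nt, 6 as reported, was 5 with either replicate left out and 4 with at least 30 transcripts in each replicate, where fewer variants were counted. H1f0 minus H1fx was not run, since H1fx had 3 reads. No paired analysis was possible because the data hold a single group. Depth limited H1fx, H1f0 and H2afy most, with 3, 16 and 25 reads.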
